A study of Caenorhabditis elegans with 36 samples.

Results

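The genes described here encode the enzymes that release fatty acids from stored fat and burn them, together with the small proteins that carry lipids inside cells and between them. They were chosen by name alone. A gene was taken if its annotated symbol starts with acs- (acyl-CoA synthetases), acdh- (acyl-CoA dehydrogenases), acox- (acyl-CoA oxidases), cpt- (carnitine palmitoyltransferases), ech- (enoyl-CoA hydratases), lipl- (lysosomal-type lipases) or lbp- (lipid-binding proteins) followed by a number. This gave 73 of the 17118 genes with a probe set of their own: 23 acs, 12 acdh, 5 acox, 6 cpt, 10 ech, 8 lipl and 9 lbp genes. Each gene was read from 1 probe set, the brightest over all 36 arrays, and 10 of the 73 genes had more than 1. For 25 genes that probe set is marked as one that can also detect other transcripts.

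Fat is stored as triglyceride in lipid droplets, mostly in the intestine and the hypodermis of the worm. Lipases, among them acid lipases of the lysosome such as the lipl family, cut fatty acids free, lipid-binding proteins carry them, and acyl-CoA synthetases join them to coenzyme A. Long acyl chains then enter mitochondria through the carnitine shuttle, which cpt-1 and cpt-2 encode. In each round of beta-oxidation an acyl-CoA dehydrogenase (mitochondria) or an acyl-CoA oxidase (peroxisomes) makes a double bond, and an enoyl-CoA hydratase adds water across it. Fasting is known to switch several of these genes on through the nuclear receptor NHR-49 and the transcription factor HLH-30, and insulin signalling is known to restrain fat breakdown through DAF-16.

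The study measured total RNA of whole, synchronized first-stage (L1) larvae of Caenorhabditis elegans on Affymetrix arrays and asked how DAF-16, the FoxO factor that insulin signalling holds back, takes part in the response to DNA damage by ultraviolet light. The 4 strains were wild-type N2, a daf-16 mutant, a daf-2 mutant, in which the insulin receptor gene is mutated and DAF-16 is known to be more active, and a daf-2;daf-16 double mutant, which carries both mutations. Each strain was untreated, exposed to UV or starved, which makes 12 groups of 3 arrays, except 2 arrays of starved daf-16 and 4 of starved double mutant larvae. Per the labels, larvae had 4 h on food before treatment and were harvested 6 h after it, and this text stands with every array. The sources used here do not give the alleles, the UV dose or how the starved larvae were kept. No label says whether replicates were grown separately, and p-values here cover only the spread between arrays of a group, which may be technical. In whole larvae, fewer cells of a type and less RNA per cell cannot be told apart.

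All levels below are the deposited log2 signals, so a difference of 1 is a 2-fold change, and the level of one gene is not compared with that of another. Median signals of the arrays lay between 5.79 and 5.88. Some facts of the whole series touch several results. Replicate arrays mostly lay close together, but 3 arrays stood apart from the others of their group: replicate 3 of UV-exposed daf-16, replicate 1 of the untreated double mutant and replicate 4 of the starved double mutant. Of the targeted genes, 1 of the 4 daf-16 probe sets was lower in untreated daf-16 larvae (group mean 3.72) and in the double mutant (3.70) than in N2 (4.11), without overlap, while the brightest was higher (8.72 and 8.50 against 8.08). The brightest daf-2 probe set was 5.04 in N2 and 5.11 in daf-2. A probe set outside a deleted part checks nothing, and the alleles are unknown. Marker lists moved with the groups. The mean over 12 of 12 molting-cycle genes was 10.69 to 10.78 in untreated N2, 8.71 to 9.23 after UV and 4.93 to 5.06 after starvation. It was 9.84 to 9.92 in untreated daf-2 larvae. Hypodermal markers (6 of 6) averaged 10.82 to 11.11 in untreated and 7.80 to 7.93 in starved N2, neuronal markers (6 of 6) 9.30 to 9.35 and 10.18 to 10.46, and muscle markers (6 of 6) 10.89 to 10.96 and 11.73 to 11.77. Intestinal markers (8 of 8) stayed between 10.13 and 10.57 on all 36 arrays. Yolk genes of adults, which larvae should lack, had a mean between 4.49 and 4.98 (4 of 5 measured). A signal at or under this level may be background, so a change that starts or ends there has no exact size.

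Starvation changed most of these genes in every strain, and UV fewer. Between the lowest and the highest of the 12 group means, 47 of the 73 genes (64.4%) spanned at least 2-fold and 24 at least 4-fold, against 34.5% of all genes at 2-fold. The median span was 1.32 on the log2 scale, against 0.68 for all genes. The lowest group mean was a starved group for 43 genes, an untreated group for 19 and a UV group for 11. In the fit across all probe sets, a gene was called changed if its Benjamini-Hochberg adjusted p was under 0.05. Starvation changed 55 of the 73 genes in N2, 26 higher and 29 lower, or 75.3% against 53.1% of all probe sets. In daf-16 larvae it raised 24 and lowered 30 (74% against 51.2% of probe sets), in daf-2 larvae it raised 20 and lowered 30 (68.5% against 43%), and in the double mutant it raised 24 and lowered 31 (75.3% against 54.5%). The median size of the starvation response in N2 was 0.81 for these genes and 0.30 for all genes, on the log2 scale. Of the 73 genes, 19 rose on starvation in all 4 strains (26%, against 18.2% of probe sets), 25 fell in all 4 (34.2% against 14.3%) and 13 were called in none (17.8% against 30%). The 4 starvation comparisons share no arrays. Of those 19, ech-3 and lbp-3 missed the threshold in at least 1 strain when single arrays were left out, and of the 25, acdh-1 and ech-5 did so in daf-2.

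**Figure D1:**
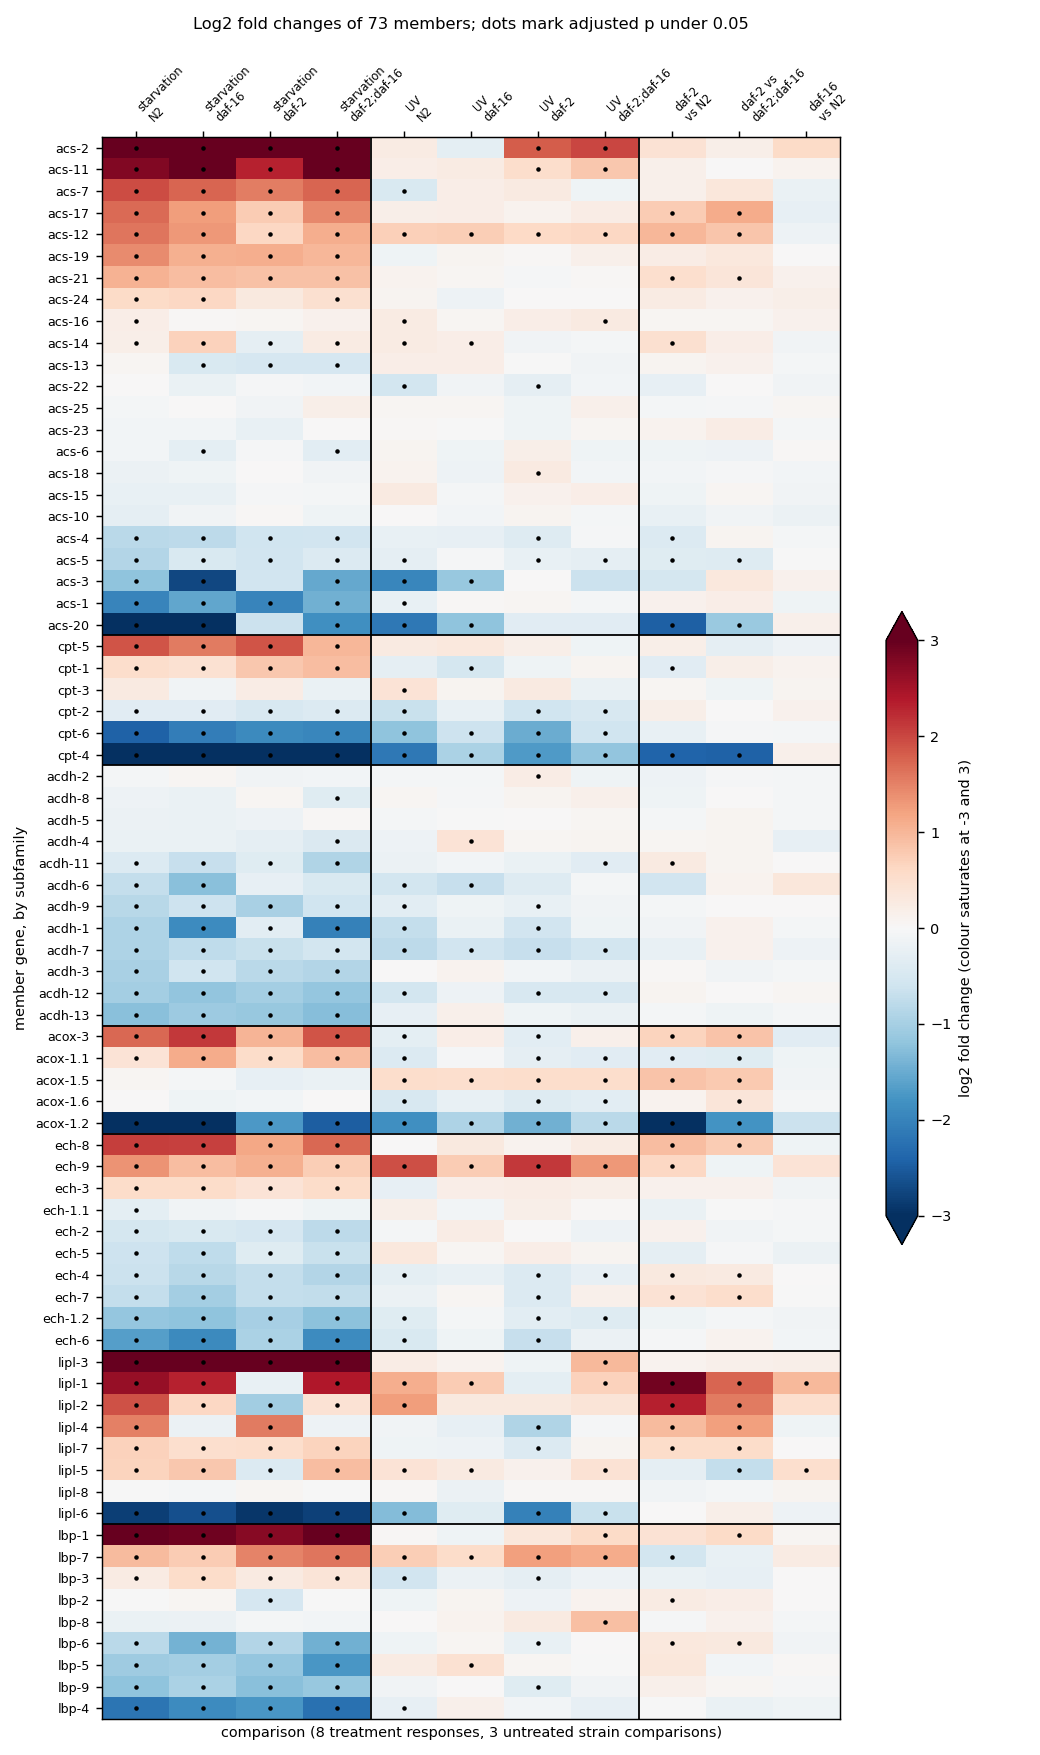
Log2 fold changes of the 73 genes (rows, grouped by family) in the comparisons with untreated larvae and between untreated strains (columns). Red is higher and blue lower, the colour saturates at 3 log2 units in each direction, and a dot marks an adjusted p under 0.05. The starvation columns carry the most dots, with 55 in N2.

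The lipases rose as a family on starvation in N2, with a median log2 change of 1.1. Of the 8 lipases, 6 were higher and 1 was lower, against 53.1% of all probe sets called. The strongest was lipl-3, a lysosomal lipase known to be induced by fasting through HLH-30. Its log2 signal was 5.33, 5.24 and 5.28 on the untreated N2 arrays and 9.45, 9.12 and 9.29 on the starved ones. The groups lie far apart, a 16.1-fold rise (4.01 ± 0.31 SE on the log2 scale, adjusted p = 3.8e-13). It rose in each other strain too, by 3.52 in daf-2, 4.62 in daf-16 and 4.81 in the double mutant. Its starved signal was 10.01 and 10.12 in daf-16 larvae, and 8.95, 8.90 and 8.88 in daf-2 larvae, the lowest of the 4 strains.

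The response of lipl-4 followed daf-16 genotype. This lysosomal lipase is known for extending lifespan when overexpressed in the intestine. In N2 it was 3.91, 4.06 and 3.99 untreated and 5.56, 5.28 and 5.62 starved (1.51 ± 0.12). In daf-2 larvae it was 4.96, 5.06 and 4.75 untreated and 6.46, 6.31 and 6.73 starved (1.57 ± 0.12). Every starved array of these strains was above every untreated one. In daf-16 larvae, in contrast, it was 3.62, 4.02 and 3.92 untreated and 3.78 and 3.56 starved (-0.18, adjusted p = 0.26). In the double mutant it was 3.80, 3.65 and 3.61 untreated and 3.44, 3.73, 3.60 and 3.37 starved (-0.15, adjusted p = 0.26). The groups of both strains overlap. The difference in response was called in both pairs, at -1.69 ± 0.18 for daf-16 against N2 (adjusted p = 1.4e-07) and 1.73 ± 0.16 for daf-2 against the double mutant (adjusted p = 2.6e-09). Both calls held without every single array and in every other setting that kept the gene. Fed N2 and the daf-16 and double mutant arrays read under the yolk genes' mean, however. The sizes of these responses and of their differences are therefore not exact.

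Among the lipases that rose in N2, lipl-1, lipl-2 and lipl-5 did not rise in daf-2 larvae. The lysosomal lipase lipl-1, another known fasting gene, was 6.39, 5.24 and 5.15 in untreated N2 and 8.24, 8.21 and 8.15 in starved N2 (2.61 ± 0.22). In daf-2 larvae it was already 8.43, 8.35 and 8.68 when fed and stood at 8.22, 8.12 and 8.42 when starved (-0.23, adjusted p = 0.46). Fed daf-2 larvae thus had at least the level of starved N2 larvae on each array. In the double mutant it rose by 2.41, from 7.22, 6.27 and 6.71 to between 8.83 and 9.33. The response of daf-2 was lower than that of the double mutant by -2.64 ± 0.30 (adjusted p = 1.4e-07). The related lipl-2 was 5.97, 4.97 and 4.66 in untreated and 6.96, 7.23 and 7.14 in starved N2 (1.91 ± 0.19). The untreated values 4.97 and 4.66 lie at or under the yolk genes' mean, so this rise has no exact size. In daf-2 lipl-2 fell from 7.49, 7.62 and 7.49 to 6.55, 6.60 and 6.32 (-1.04, adjusted p = 2.2e-05). In daf-16 it was 0.61 higher (adjusted p = 0.015) and in the double mutant 0.43 higher (adjusted p = 0.038), and neither call held without single arrays. The daf-16 call was lost without replicate 1 of the untreated or replicate 2 of the starved larvae. The double mutant call was lost without replicate 1, 2 or 3 of its starved larvae among others. The signal of lipl-5 rose by 0.67 in N2, 0.82 in daf-16 and 0.93 in the double mutant and fell by 0.42 in daf-2 (adjusted p = 7.0e-04), where it went from 9.57, 9.32 and 9.38 to 8.95, 8.97 and 9.11. The difference between daf-2 and the double mutant was -1.48 ± 0.26 for lipl-2 and -1.35 ± 0.14 for lipl-5.

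The other lipases of the family divide into a steady riser, a steady faller and one near the floor. The signal of lipl-7 rose by 0.69 in N2, 0.53 in daf-2, 0.50 in daf-16 and 0.67 in the double mutant. The signal of lipl-6 fell in all 4 strains, in N2 from 6.83, 6.95 and 7.07 to 3.88, 4.37 and 4.12 (-2.83 ± 0.17), and by 2.64, 2.92 and 2.81 in daf-16, daf-2 and the double mutant. Its starved arrays lie near the low end of the array's scale, whose lowest value was 2.63. The last, lipl-8, was called in no starvation comparison, with differences between -0.06 and 0.05.

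**Figure D2:**
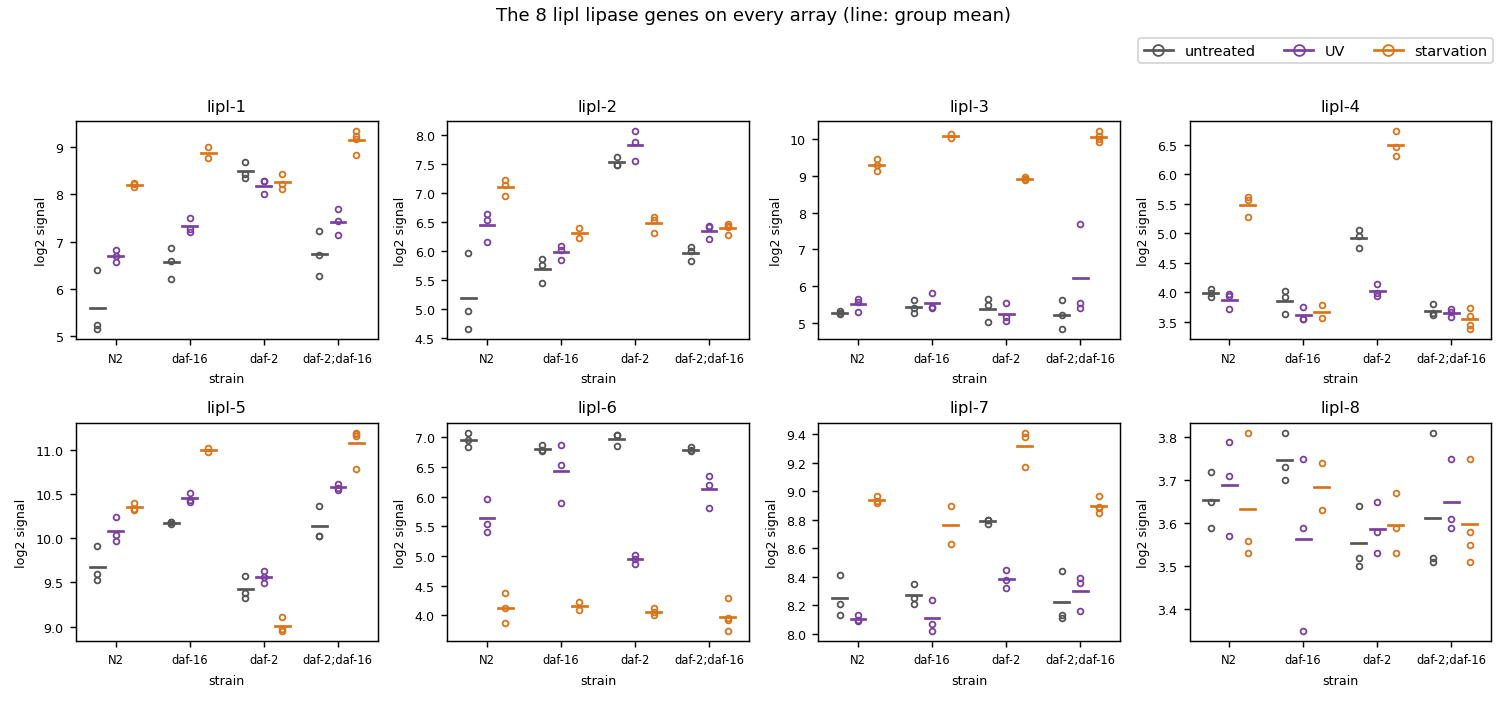
Log2 signal (vertical axis) of the 8 lipl genes on each of the 36 arrays by strain (horizontal axis) and treatment (colour), with a line at each group mean. In the panel of lipl-4 the starved arrays of N2 and daf-2 lie above the untreated ones and those of daf-16 and the double mutant do not.

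Among the 9 lipid-binding proteins, 3 rose and 4 fell in all 4 starved strains (33.3% and 44.4%, against 18.2% and 14.3% of probe sets). The largest rise was that of lbp-1, a member thought to be secreted. In N2 it was 8.29, 7.99 and 8.07 untreated and 11.23, 11.48 and 11.43 starved, a 9.61-fold difference (3.26 ± 0.16) with no overlap. It rose by 2.74 in daf-2, 2.92 in daf-16 and 3.03 in the double mutant. The adjacent genes lbp-2 and lbp-3 on chromosome X, the nearest protein-coding neighbours of lbp-1 in the reference annotation, changed by far less. The signal of lbp-3 rose in every strain, by 0.25 in N2 (adjusted p = 0.018, not called without replicate 1 of untreated or replicate 2 of starved N2), 0.26 in daf-2, 0.55 in daf-16 and 0.38 in the double mutant. That of lbp-2 changed by -0.01 in N2 (not called) and was called in daf-2 alone, where it fell by 0.51. The signal of lbp-7 rose by 0.95 in N2, 1.48 in daf-2, 0.76 in daf-16 and 1.60 in the double mutant.

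The falls were led by lbp-4, with 9.03, 9.03 and 9.07 in untreated and 6.83, 7.0 and 6.75 in starved N2 (-2.18, 4.53-fold). It fell by 1.88, 1.74 and 2.24 in the other strains in the order daf-16, daf-2 and double mutant. The signal of lbp-9 fell by 1.21 in N2 and that of lbp-5, a fatty acid-binding protein, by 1.06. The fall of lbp-5 was larger in the double mutant (-1.74) than in daf-2 (-1.15), by 0.59 (adjusted p = 0.018). That difference was not called without replicate 2 of the untreated double mutant (0.53, adjusted p = 0.062). Next to lbp-5, with 1 protein-coding gene between, lies lbp-6, an intracellular fatty acid carrier. It was 12.91, 12.83 and 12.93 in untreated and 12.02, 12.10 and 12.11 in starved N2 (-0.81). In daf-16 larvae it fell further, from 12.73, 12.82 and 12.79 to 11.36 and 11.35 (-1.42). The difference of -0.61 ± 0.08 was called (adjusted p = 4.7e-06), as was that of 0.54 between daf-2 (-0.89) and the double mutant (-1.43). The transcript of lbp-8, whose protein is known to carry a lipid signal of LIPL-4 to the nucleus, was read by a dim probe set. It was 3.45, 3.45 and 3.76 in untreated and 3.44, 3.31 and 3.29 in starved N2, which was not called.

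**Figure D3:**
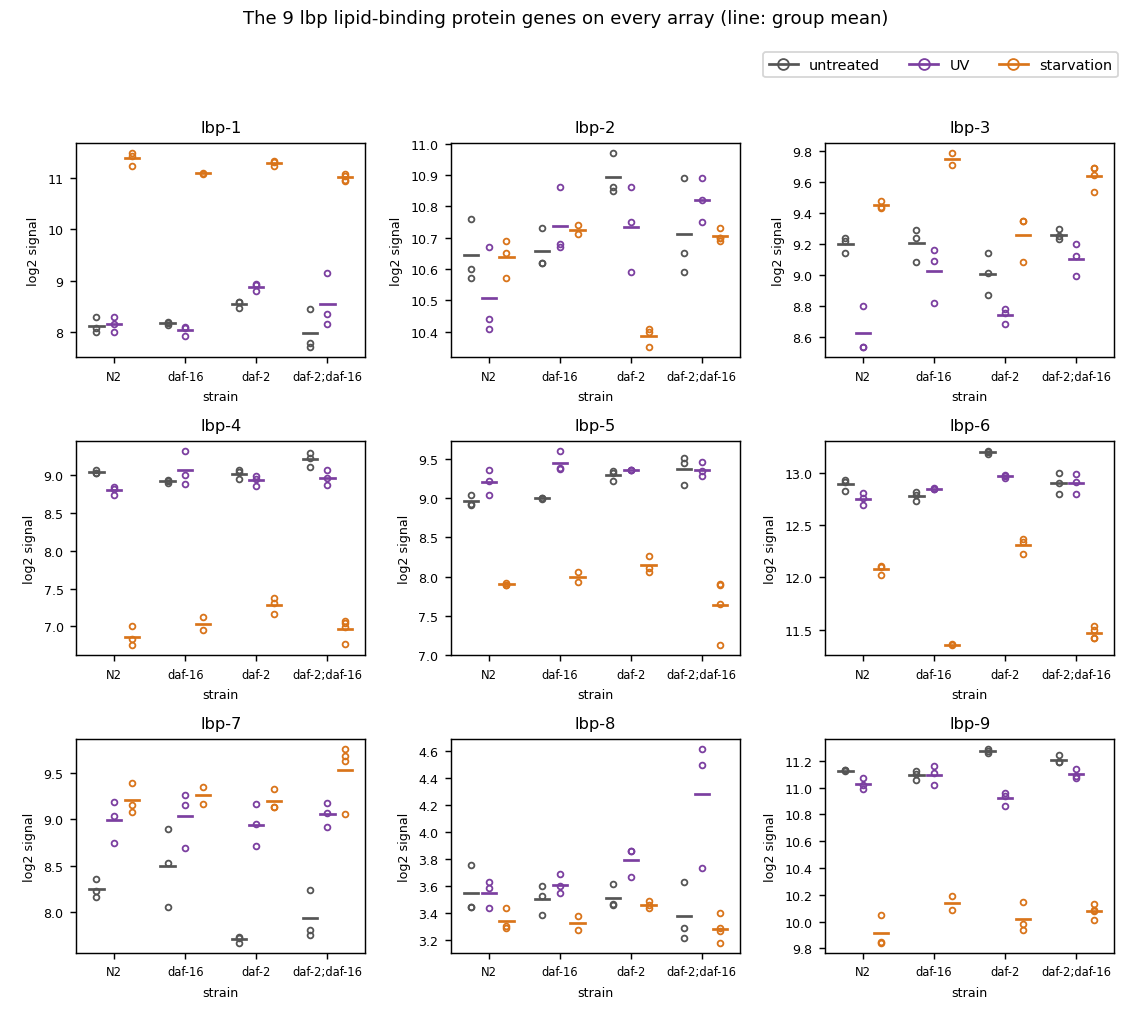
Log2 signal (vertical axis) of the 9 lbp genes on each of the 36 arrays by strain (horizontal axis) and treatment (colour), with a line at each group mean. Starved arrays are above the untreated ones for lbp-1 and below them for lbp-4, lbp-5, lbp-6 and lbp-9 in every strain.

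Of the 23 acyl-CoA synthetases, 10 rose and 5 fell on starvation in N2, where 53.1% of all probe sets were called. The largest rise of all 73 genes was that of acs-2, which encodes a mitochondrial synthetase and is the best known fasting target of NHR-49. Its log2 signal was 7.42, 6.70 and 6.04 in untreated N2 and 12.83, 12.71 and 12.71 in starved N2. The starved arrays lay over 5 units above the highest fed one, a 65.4-fold difference (6.03 ± 0.50, adjusted p = 2.1e-12). The rise was 5.61 in daf-2, 5.40 in daf-16 and 5.83 in the double mutant, and neither test of a difference between strains called it. The fed arrays spread widely, with 8.32, 6.45 and 6.16 in the double mutant, where leaving out replicate 1 moves the rise to 6.5. The starved arrays lay between 12.50 and 12.99 in all strains. A second acs-2 probe set rose by 5.69 in N2.

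Other synthetases followed with smaller rises. The signal of acs-11 went from 5.76, 5.49 and 5.73 to 8.21, 8.44 and 8.67 in N2, a 6.88-fold rise (2.78 ± 0.17, adjusted p = 2.1e-15), and rose by 3.09, 2.30 and 3.15 in daf-16, daf-2 and the double mutant. The gene acs-7, which acts in making ascarosides, the worm's pheromones, rose from 6.54, 6.77 and 6.69 to 8.56, 8.62 and 8.71 (1.96 ± 0.12), and by 1.53 to 1.75 elsewhere. In both genes no starved array overlapped a fed one. The rise of acs-17 was 1.71 in N2, 0.77 in daf-2, 1.25 in daf-16 and 1.43 in the double mutant. That of acs-12 was 1.61, 0.62, 1.31 and 1.08 in the same order. Both started higher in fed daf-2 larvae, as described with the strains below.

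The falls include genes outside fuel use. The synthetase acs-1, needed for branched-chain fatty acids in the larva, fell from 10.78, 10.79 and 10.72 to 8.65, 8.95 and 8.73 in N2 (-1.99 ± 0.08), and by 1.55, 1.97 and 1.43 in daf-16, daf-2 and the double mutant. The gene acs-20, a fatty acid transport protein known to build the cuticle barrier, was 10.50, 10.77 and 10.76 in untreated and 7.40, 7.57 and 7.52 in starved N2 (-3.18 ± 0.28, 9.05-fold). In daf-16 larvae it fell by 3.33. In daf-2 larvae it was low when fed, at 8.18, 8.15 and 8.32, and 7.61, 7.53 and 7.58 when starved (-0.64, adjusted p = 0.068). In the double mutant, fed larvae read 10.49, 8.71 and 8.79. Replicate 1 sits with N2 there and the others do not, and that array also had the highest molting-cycle mean of its group, 10.53 against 9.75 and 9.77. The related acs-22 changed by 0.02 and was not called. The gene acs-3, active in the seam cells of the hypodermis, fell by 1.2 in N2, 2.74 in daf-16 and 1.53 in the double mutant. The change in daf-2 larvae, -0.57, was not called. The falls of acs-20 and acs-3 moved with those of the hypodermal and molting-cycle lists given above, and the part of these in them was not tested.

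The carnitine shuttle did not move as a block. Of the 6 cpt genes, cpt-1 and cpt-5 rose and cpt-2, cpt-4 and cpt-6 fell on starvation, each in all 4 strains. Of all probe sets, 18.2% rose and 14.3% fell in all 4 strains. The outer-membrane enzyme cpt-1 was 8.24, 8.36 and 8.33 in untreated and 8.96, 8.76 and 8.79 in starved N2 (0.52 ± 0.12, adjusted p = 2.4e-04), and rose by 0.45, 0.82 and 0.92 in daf-16, daf-2 and the double mutant. Its inner-membrane partner cpt-2 fell by 0.34 to 0.48 over the strains. The rise of cpt-5, a further carnitine acyltransferase gene, was 1.89 ± 0.17 in N2, from 5.17, 5.07 and 4.97 to 6.92, 6.89 and 7.07. It was larger in daf-2 (1.89) than in the double mutant (1.00), a difference of 0.89 ± 0.24.

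The largest fall of the 73 genes was that of cpt-4, which is named for its likeness to the carnitine acyltransferases. Its signal was 9.63, 10.22 and 10.20 in untreated and 4.10, 4.20 and 3.97 in starved N2 (-5.93 ± 0.23, adjusted p = 2.2e-20). It fell by 6.15 in daf-16 and by 5.82 in the double mutant. Fed daf-2 larvae started lower, at 7.58, 7.79 and 7.45, and ended at 4.05, 4.04 and 4.11, a change of -3.55. The difference of 2.27 ± 0.32 between daf-2 and the double mutant was called (adjusted p = 5.0e-06). Starved arrays of every strain read 3.97 to 4.39, under the yolk genes' mean, so the falls have no exact size, and the difference between daf-2 and the double mutant is close in size to that of their fed levels (-2.42). A second cpt-4 probe set fell by 5.18 in N2. The signal of cpt-6 fell by 2.42 in N2 and by 1.92 to 2.07 in the other strains.

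In peroxisomes the acyl-CoA oxidases split. The gene acox-3 rose from 8.35, 8.35 and 8.48 to 10.05, 10.11 and 10.19 in N2 (1.72 ± 0.11), by 1.03 in daf-2, 2.13 in daf-16 and 1.88 in the double mutant. The gene acox-1.1, which shortens the side chains of ascarosides, rose by 0.42 in N2 (adjusted p = 1.5e-04), 0.54 in daf-2, 1.12 in daf-16 and 0.92 in the double mutant. Its direct neighbour on chromosome I, acox-1.2, went the other way. It was 9.07, 9.65 and 9.61 in untreated and 4.79, 4.40 and 4.32 in starved N2 (-4.94 ± 0.22, adjusted p = 5.3e-19). It fell by 1.73 in daf-2, 3.63 in daf-16 and 2.48 in the double mutant. The starved levels of daf-2 (4.40, 4.49 and 4.41) were close to those of N2, and its fed levels (6.16, 6.21 and 6.10) were lower. In both strains the starved levels lie at or under the yolk genes' mean, which leaves these falls without an exact size, while starved daf-16 (4.91 and 5.42) and double mutant larvae (5.25 to 5.64) read higher. A probe set that carries both acox-1.3 and acox-1.4, which are not among the 73 because neither has a probe set of its own, fell by 1.53 in N2, 1.45 in daf-2, 2.76 in daf-16 and 2.51 in the double mutant.

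Most of the acyl-CoA dehydrogenases fell. Of 12 genes, 8 were lower on starvation in N2 and no other was called, with a median log2 change of -0.77. Of all probe sets, 53.1% were called in this comparison. The gene acdh-1 encodes the first enzyme of the propionate shunt and is a known reporter of bacterial diet. It was 12.93, 13.11 and 13.14 in untreated and 12.02, 12.27 and 12.12 in starved N2 (-0.92 ± 0.13). Strains differed in it. It fell further in daf-16, to 11.13 and 11.10 (-1.88), and in the double mutant, to 10.50, 10.57, 10.86 and 11.26 (-2.03). In daf-2 larvae it read 12.74, 12.72 and 12.47 after starvation (-0.31, adjusted p = 0.048), a call lost without any single untreated array or replicate 2 or 3 of the starved ones. The response of daf-16 was lower than that of N2 by -0.95 ± 0.19 (adjusted p = 1.8e-03), and that of daf-2 higher than that of the double mutant by 1.72 ± 0.17 (adjusted p = 8.4e-09). In both pairs the strain with a mutated daf-16 had the larger fall. In N2 acdh-12, a very-long-chain enzyme, changed by -1.03 and acdh-13 by -1.25, and over all strains both lay between -1.28 and -1.01. The signal of acdh-11, a dehydrogenase that ties membrane fluidity to heat, fell by 0.41 in N2 and by 0.90 in the double mutant.

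Among the 10 enoyl-CoA hydratase genes, 7 fell and 3 rose in starved N2, against 53.1% of all probe sets called. The hydratase ech-6, which like acdh-1 acts in the propionate shunt, fell from 12.68, 12.62 and 12.73 to 11.12, 10.98 and 10.99 (-1.65 ± 0.07). It fell by 0.96 in daf-2, 1.90 in daf-16 and 1.88 in the double mutant. The response of daf-2 was smaller than that of the double mutant by 0.93 ± 0.10. The gene ech-1.2, a subunit of the trifunctional protein that oxidises long chains, fell by 1.00 to 1.24 over the strains. The risers were ech-8, ech-9 and ech-3. In N2, ech-8 went from 5.84, 5.91 and 5.67 to 7.79, 7.89 and 7.96 (2.07 ± 0.15), and ech-9, its neighbour on chromosome IV, from 4.09, 4.52 and 4.29 to 5.44, 5.69 and 5.79 (1.34 ± 0.19). The fed ech-9 levels lie at or under the yolk genes' mean, so its rise has no exact size. The lipase lipl-7 lies on the other side of ech-8, and it too rose in all 4 strains.

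**Figure D4:**
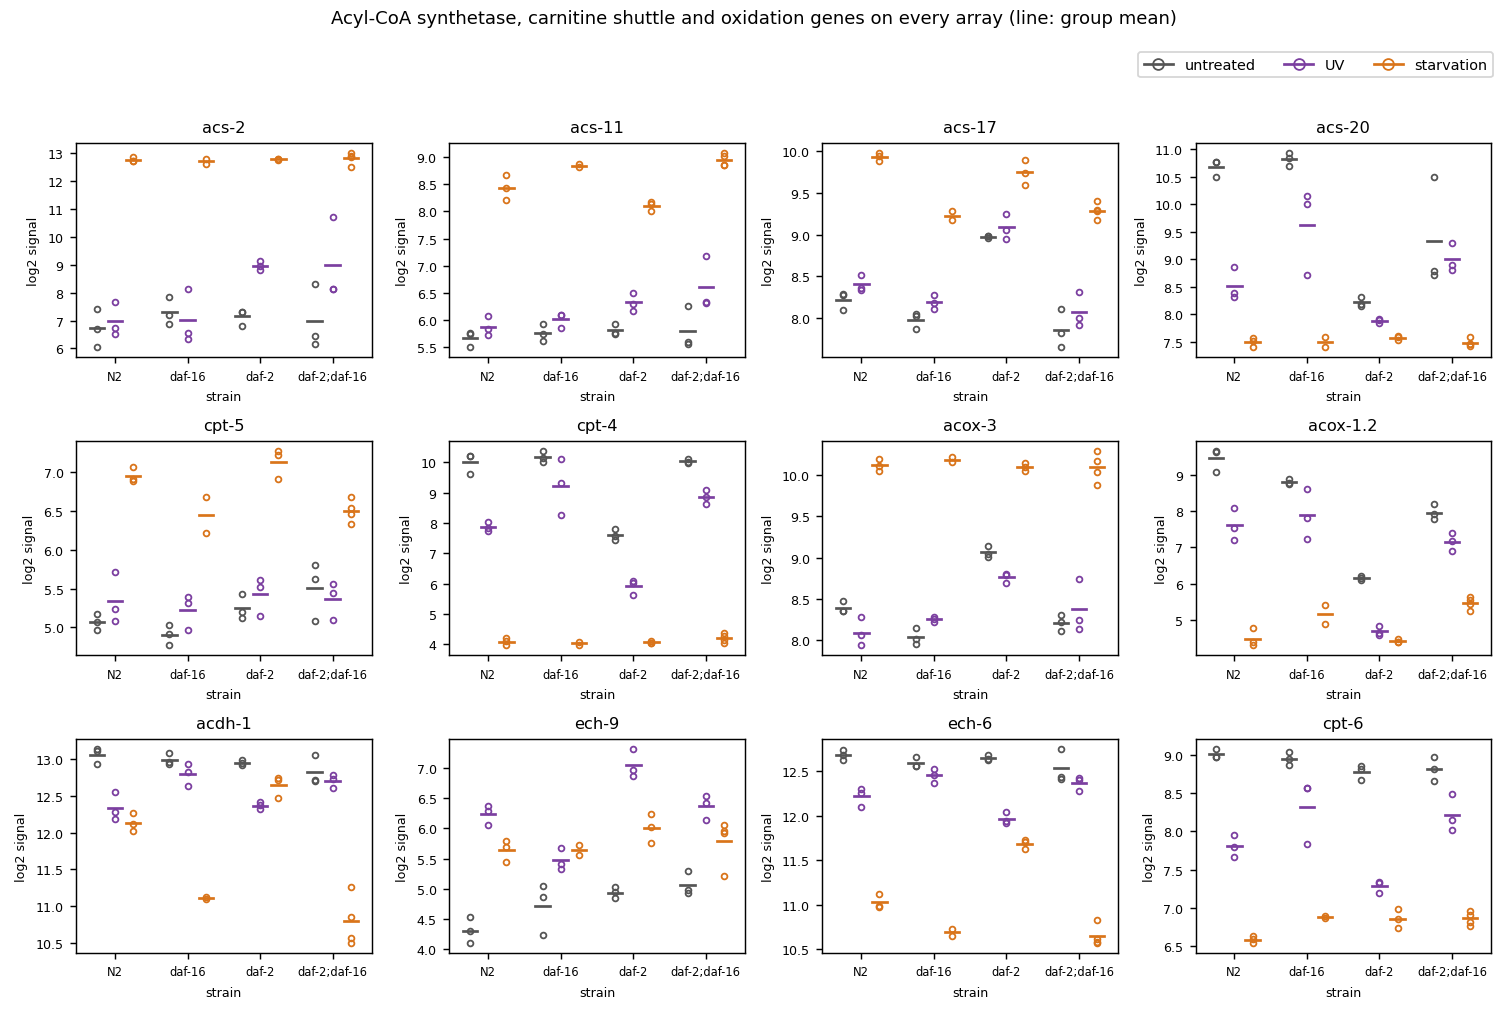
Log2 signal (vertical axis) of 12 synthetase, shuttle and oxidation genes on each of the 36 arrays by strain (horizontal axis) and treatment (colour), with a line at each group mean. Starved arrays of all strains lie at 12.50 to 12.99 for acs-2 and at 3.97 to 4.39 for cpt-4.

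UV changed 34 of the 73 genes in N2, 10 higher and 24 lower (46.6%, against 28.8% of probe sets), and the changes were smaller than on starvation. By 2-fold or more, 3 genes rose and 6 fell, against 5.38% of probe sets called at that size. In the other strains UV raised 9 and lowered 8 in daf-16 (23.3% against 19%), raised 8 and lowered 24 in daf-2 (43.8% against 25%), and raised 12 and lowered 13 in the double mutant (34.2% against 14.6%). After quantile normalization the daf-16 counts were 7 higher and 13 lower. The daf-16 total of 17 was 8 without replicate 3 of UV-exposed larvae and 11 without replicate 1 of untreated ones. The double mutant total of 25 was 16 without replicate 1 of its UV arrays. Over the 4 strains 22 of the 73 genes were called in none (30.1%, against 57.9% of probe sets). Each UV comparison shares its untreated arrays with the starvation comparison of that strain.

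The largest UV rise in N2 was that of ech-9. It went from 4.09, 4.52 and 4.29 to 6.37, 6.29 and 6.05, without overlap (1.93 ± 0.19, adjusted p = 1.4e-09). It started at or under the yolk genes' mean, so its rise has no exact size. In daf-2 it reached 6.88, 7.33 and 6.97 (2.13), and in the double mutant it rose by 1.31. In daf-16 it rose by 0.76 (adjusted p = 4.0e-03), which was 0.52 (adjusted p = 0.069) without replicate 1 of untreated larvae. Its neighbours ech-8 (-0.00) and lipl-7 (-0.14) were not called in N2. Next came lipl-2, from 5.97, 4.97 and 4.66 to 6.54, 6.16 and 6.65 (1.25 ± 0.19), and lipl-1, from 6.39, 5.24 and 5.15 to 6.69, 6.56 and 6.83 (1.1 ± 0.22, adjusted p = 1.9e-04). For lipl-2 the untreated values 4.97 and 4.66 lie at or under the yolk genes' mean, so its rise has no exact size. In daf-2 larvae, where both lipases were high without treatment, lipl-2 changed by 0.30 and lipl-1 by -0.30, and neither was called. Genes raised by UV in every strain, 4 of the 73 (5.48%, against 4.09% of probe sets), were ech-9, acs-12 (0.60 to 0.73), acox-1.5 (0.50 to 0.53) and lbp-7 (0.54 to 1.23). Among these calls, that of lbp-7 in daf-16 was lost without replicate 2 or 3 of untreated or replicate 1 of UV-exposed larvae, among others. That of acox-1.5 in the double mutant was lost without replicate 2 of its untreated larvae (0.37, adjusted p = 0.065).

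The UV falls in N2 were led by cpt-4, acs-20, acs-3 and acox-1.2. The signal of cpt-4 fell to 7.82, 8.02 and 7.75 (-2.15 ± 0.23), that of acs-20 to 8.32, 8.38 and 8.86 (-2.15 ± 0.28) and that of acs-3 to 5.85, 5.80 and 6.26 (-1.96 ± 0.28). The signal of acox-1.2 fell to 8.07, 7.21 and 7.54 (-1.84 ± 0.22), lipl-6 to 5.96, 5.41 and 5.54 (-1.31 ± 0.17) and cpt-6 to 7.95, 7.66 and 7.80 (-1.2). None of these groups overlapped with the untreated N2 arrays. UV lowered 4 genes in all 4 strains (5.48%, against 2.02% of probe sets), namely cpt-4, cpt-6, acox-1.2 and acdh-7, a medium-chain dehydrogenase (-0.79 in N2, -0.54 to -0.70 elsewhere). In daf-16 larvae, single arrays decided several falls. The arrays read 10.10, 9.31 and 8.28 for cpt-4, with replicate 3 lowest. For acs-20 replicate 3 read 8.72 and replicate 1 read 10.14. Replicate 3 also had the lowest molting-cycle mean, 9.11 against 10.20 and 10.34. Without that array the falls of cpt-4 (-0.95), acs-20 (-1.2), acs-3 (-1.14) and acox-1.2 (-0.92) became -0.47, -0.75, -0.61 and -0.60, and none was called. In the double mutant the fall of acox-1.2 (-0.80, adjusted p = 0.011) was not called without replicate 1 of its untreated larvae (-0.69) or of its UV arrays (-0.68). The part of the molting-cycle genes in these falls was not tested.

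Several UV responses were called in strains with a mutated daf-2. The fasting gene acs-2 was not called in N2 (0.25, adjusted p = 0.76) or daf-16 (-0.30, adjusted p = 0.75). In daf-2 larvae it rose from 7.32, 6.81 and 7.31 to 9.13, 8.81 and 8.95 (1.81 ± 0.50, adjusted p = 5.5e-03), with no overlap. In the double mutant it went from 8.32, 6.45 and 6.16 to 10.70, 8.14 and 8.12 (2.01 ± 0.50, adjusted p = 4.4e-03), with overlap. Leaving out replicate 1 of the UV arrays there gave 1.15 (adjusted p = 0.097), and leaving out replicate 1 of the untreated arrays gave 2.68. The same UV array read 7.70 for lipl-3, against 5.55 and 5.42 on the others, and the called rise of lipl-3 in that strain (0.98, adjusted p = 0.027) was 0.24 without it. Whether UV moved acs-2 more in daf-2 than in N2 was not tested. The lipase lipl-4, higher in fed daf-2 larvae, was 3.94, 4.13 and 3.98 in daf-2 after UV, below the 4.96, 5.06 and 4.75 of untreated ones (-0.91 ± 0.12, adjusted p = 3.0e-07). Its untreated N2 values were 3.91, 4.06 and 3.99. Both the UV-exposed daf-2 and these N2 values lie under the yolk genes' mean, so the fall has no exact size. The lipid-binding gene lbp-8 rose in the double mutant, from 3.63, 3.29 and 3.22 to 3.74, 4.50 and 4.62 (0.91 ± 0.13, adjusted p = 8.3e-06), with 1 UV array close to the untreated ones. All these arrays read at or under the yolk genes' mean, so the rise has no exact size. The probe set of lbp-8 is also marked as one that can detect other transcripts.

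Untreated daf-2 larvae had 17 of the 73 genes higher and 8 lower than N2, or 34.2% against 16.8% of probe sets. Against the double mutant 15 were higher and 6 lower (28.8% against 11.6%). Both comparisons share the untreated daf-2 arrays, so their values stand side by side here and are not combined. Untreated daf-16 larvae differed from N2 in 2 genes (2.74% against 1.43%), both lipases. Of these, lipl-5 was higher in daf-16 than in N2 by 0.50 ± 0.10 (adjusted p = 3.5e-03). The other, lipl-1, was higher by 0.97 ± 0.22 (adjusted p = 0.014) with overlapping groups, and was not called without replicate 2 or 3 of N2 or replicate 2 or 3 of daf-16.

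Of the 8 lipases, 4 were higher in fed daf-2 larvae than in N2 and no other was called, against 16.8% of probe sets called. The signal of lipl-1 was 8.43, 8.35 and 8.68 in daf-2, 6.39, 5.24 and 5.15 in N2 and 7.22, 6.27 and 6.71 in the double mutant. It was 2.89 ± 0.22 above N2 (7.43-fold, adjusted p = 7.3e-12) and 1.75 ± 0.22 above the double mutant. The signal of lipl-2 was 7.49, 7.62 and 7.49 in daf-2 and 6.08, 5.83 and 6.00 in the double mutant, 2.33 ± 0.19 above N2 and 1.57 ± 0.19 above the double mutant. The signal of lipl-4 was 0.94 ± 0.12 above N2 and 1.24 ± 0.12 above the double mutant, and that of lipl-7 was 0.54 and 0.56 above them. For lipl-4 both other strains read under the yolk genes' mean, so its differences have no exact size. Some N2 arrays of lipl-2 lie at or under that mean too, so its difference from N2 has no exact size. In each of these 4 genes every daf-2 array was above every array of both other strains. The reverse held for lipl-5, which was lower in daf-2 than in the double mutant (-0.72 ± 0.10) and not called against N2 (-0.26).

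Further along the pathway, some acs, acox and ech genes were higher in fed daf-2 larvae, and no cpt gene was. Among the synthetases, acs-12 was 1.00 ± 0.10 above N2 and 0.84 above the double mutant, and acs-17 was 0.75 and 1.11 above them. The peroxisomal genes acox-1.5 (0.86 and 0.79), acox-3 (0.67 and 0.85) and ech-8 (0.93 and 0.76) were higher in both comparisons. The signal of acs-17 shows the pattern: 8.98, 8.98 and 8.96 in daf-2, 8.29, 8.28 and 8.10 in N2 and 8.11, 7.65 and 7.82 in the double mutant. Every daf-2 array was above those of both other strains. The lipid carrier lbp-6 was 0.31 above N2 and 0.30 above the double mutant. The fasting genes acs-2 (0.43 and 0.17) and lipl-3 (0.11 and 0.15), by contrast, were called in neither comparison.

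Fewer genes were low in fed daf-2 larvae. The largest difference was that of acox-1.2, at 6.16, 6.21 and 6.10 in daf-2, 9.07, 9.65 and 9.61 in N2 and 8.19, 7.91 and 7.77 in the double mutant (-3.28 ± 0.22 against N2, adjusted p = 3.8e-13, and -1.80 ± 0.22 against the double mutant). The signal of cpt-4 was 7.58, 7.79 and 7.45 in daf-2 and 10.11, 9.97 and 10.02 in the double mutant (-2.41 ± 0.23 against N2 and -2.42 ± 0.23 against the double mutant). For both genes every daf-2 array was below every array of N2 and of the double mutant. The signal of acs-20 was lower than in N2 (-2.46 ± 0.28, adjusted p = 4.8e-08). Against the double mutant the difference was -1.11 ± 0.28 (adjusted p = 6.6e-03), which became -0.53 (adjusted p = 0.12) without replicate 1 of the untreated double mutant. The molting-cycle mean of fed daf-2 larvae (9.84 to 9.92) was below that of N2, as given above, and close to that of 2 double mutant arrays (9.75 and 9.77), and its part in these values was not tested. The oxidase acox-1.1 was slightly lower in daf-2 than in the double mutant (-0.36) and in N2 (-0.33, not called without replicate 1 of N2).

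Tests of the difference between responses showed where the strains parted on starvation. Between daf-2 and the double mutant 23 of the 73 genes differed, 10 with a higher and 13 with a lower response in daf-2 (31.5%, against 12.8% of probe sets). The higher responses were those of cpt-4, lipl-4, acdh-1, acs-20, ech-6, cpt-5, lbp-5, lbp-6, acdh-11 and lbp-4. For 8 of these 10, all but lipl-4 and cpt-5, the gene fell in the starved double mutant and fell less, or not past the threshold, in daf-2. The lower responses included lipl-1, lipl-2, lipl-5, lipl-3 (-1.29 ± 0.42, adjusted p = 0.038, lost without most single arrays of daf-2), acox-3 (-0.85), acs-11 (-0.85, lost without replicate 2 or 3 of the untreated double mutant) and acs-17 (-0.66). For acox-3 and acs-17, fed daf-2 larvae were higher. In acox-3 the starved daf-2 larvae lay near those of other strains. Starved acox-3 read 10.14, 10.05 and 10.09 in daf-2 and 9.88 to 10.29 in the double mutant. The difference of acs-20 (1.2, adjusted p = 0.037) was 0.60 without the 3 arrays that stood apart and was not called without most single arrays.

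**Figure D5:**
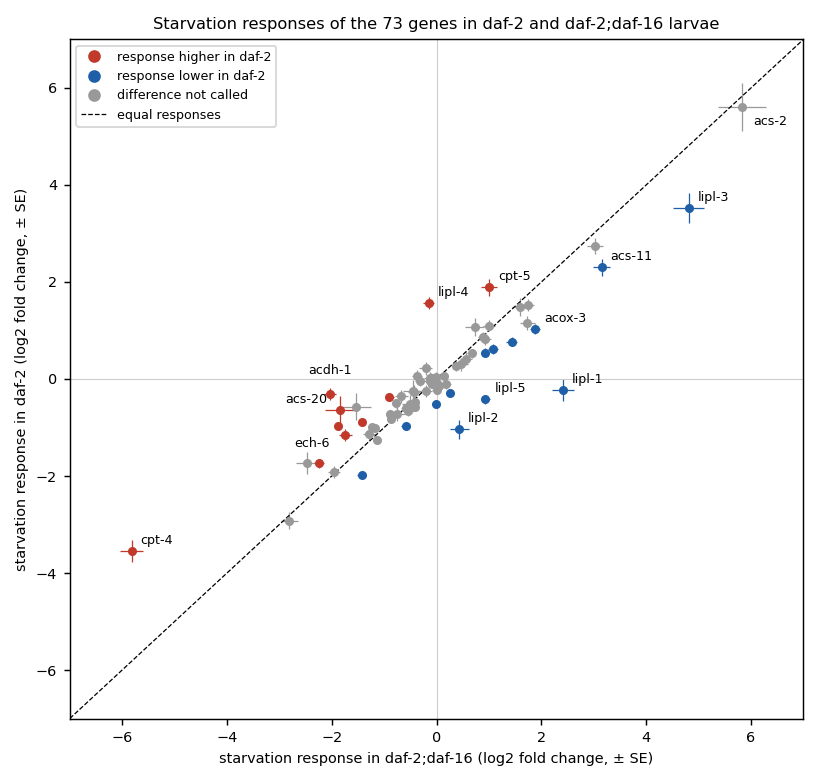
Starvation response of each of the 73 genes in the double mutant (horizontal axis) and in daf-2 (vertical axis), as log2 fold changes with their standard errors, coloured by the test of their difference. On the dashed line both responses are equal, and lipl-4, at -0.15 and 1.57, and lipl-1, at 2.41 and -0.23, lie far from it.

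Between daf-16 and N2, 11 of the 73 starvation responses differed, 6 higher and 5 lower in daf-16 (15.1%, against 3% of probe sets). The total was 7 without replicate 3 of starved N2 or replicate 1 of starved daf-16 and 6 without replicate 2 of starved daf-16, the group with 2 arrays. The calls on lipl-4 (-1.69), acdh-1 (-0.95), lbp-6 (-0.61), acox-1.1 (0.70 ± 0.14, adjusted p = 1.5e-03) and acs-14 (0.51 ± 0.11) held without every single array. That on lipl-2 (-1.30 ± 0.28, adjusted p = 5.5e-03) was lost without replicate 1 of starved daf-16 (-1.21, adjusted p = 0.052). Some fed N2 arrays lie near background in lipl-2, so this difference has no exact size. The call on acox-1.2 (1.31 ± 0.33, adjusted p = 0.020) was lost without any of 5 arrays, and starved N2 lies near background in this gene. For lipl-4, acdh-1 and lbp-6 a difference was also called between daf-2 and the double mutant, and in all 3 the strain with a mutated daf-16 had the lower response in both pairs. For acox-1.1, acs-14 and acs-1 it had the higher response in both pairs, although the acox-1.1 call in the daf-2 pair (-0.38) and the acs-1 call in the N2 pair (0.44) were lost without several single arrays. For lipl-2 the strain with a mutated daf-16 was lower in the N2 pair and higher in the daf-2 pair.

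Differences between UV responses were few. Between daf-2 and the double mutant 6 of the 73 genes differed, all with the lower response in daf-2 (8.22%, against 5.45% of probe sets). After median centring 1 was higher and 5 were lower, and without replicate 1 of the untreated double mutant 13 were called. The firm ones were lipl-6 (-1.36 ± 0.24, adjusted p = 2.3e-04), cpt-6 (-0.90 ± 0.18) and ech-6 (-0.51). The signal of lipl-6 fell to 4.95, 4.87 and 5.01 in daf-2 and to 5.81, 6.35 and 6.20 in the double mutant. These daf-2 arrays lie near the yolk genes' mean, so the lipl-6 difference has no exact size. The response of lipl-4 differed too (-0.87 ± 0.17). Its signal was under the yolk genes' mean in the untreated double mutant, where a further fall could hardly be seen. In daf-2 it fell to under that mean, so this difference has no exact size. Between daf-16 and N2, 6 were called as well, 5 higher and 1 lower (8.22%, against 1.85%), and 2 higher and 2 lower after quantile normalization. The total ranged from 0 to 15 as single arrays were left out, and 12 of the 12 arrays of these groups moved it by over 1.5 times. The largest of the 6 was that of ech-9, whose UV rise in daf-16 fell short of that in N2 by -1.17 ± 0.27 (adjusted p = 0.023). Fed N2 lies at or under the yolk genes' mean in this gene, so the difference has no exact size.

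Other genes of fat use, a list of 27 regulators and partner enzymes that were all measured, rose more often than they fell on starvation. In N2 18 were higher and 5 lower (85.2%, against 53.1% of probe sets), in daf-2 17 and 5 (81.5% against 43%), in daf-16 18 and 6 (88.9% against 51.2%), and in the double mutant 17 and 6 (85.2% against 54.5%). The regulators led, with hlh-30 (1.67 ± 0.17), the lipogenic factor sbp-1 (1.57 ± 0.11), the AMP kinase subunit aak-2 (1.47 ± 0.09), nhr-10 (1.14), the mediator subunit mdt-15 (1.02) and nhr-49 (0.81) all higher in starved N2. The lipid droplet lipase atgl-1 rose by 0.58 in N2 and 0.51 in daf-2, and by 1.62 in daf-16 and 1.92 in the double mutant. Some peroxisomal partners rose as well, among them maoc-1 (0.74), the catalase ctl-2 (0.98) and the import receptor prx-5 (0.49). Some mitochondrial ones fell, among them the carnitine carrier dif-1 (-1.09), the electron transfer enzyme let-721 (-0.89) and the thiolase kat-1 (-0.50). In the propionate shunt hphd-1 fell with acdh-1 and ech-6 (-1.28 ± 0.11), while alh-8 rose by 0.56. UV in N2 raised 3 of the 27 and lowered 7 (37% against 28.8%), led by sbp-1 (0.90) and hphd-1 (-0.97). In fed daf-2 larvae 8 were higher and 3 lower than in N2 (40.7% against 16.8%), with ctl-2 at 0.84, hacd-1, a hydroxyacyl-CoA dehydrogenase, at 0.79 and mxl-3, a repressor of lipl genes, at -1.25 ± 0.22.

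Where a gene had a second probe set, the larger changes were seen on both. On starvation in N2 the second probe sets of acs-20, acs-1, acs-17 and acdh-7 changed by -3.27, -2.08, 1.89 and -0.70. For acs-13 the 2 probe sets disagreed, with 0.05 on the brighter one and a called -0.58 on the other.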

How the data were processed

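Biotin-labelled total RNA was hybridized to single-colour Affymetrix C. elegans arrays, per the labels. Per the submitters' processing notes, the authors used Affymetrix Power Tools. Neither its version nor the algorithm is named in the sources used here. The deposited values are log2 signals between 2.63 and 14.9 for 22625 probe sets, a unit read from that range, and since the array medians nearly agree they were taken as already normalized by the authors. No build is named, so no coordinates are given.

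The 77 control probe sets were left out, and 22548 were tested. Of these 20766 carried 1 symbol, 887 several and 895 none. Symbols came from the platform annotation, updated by identifier. RefSeq's WBcel235 table served only for names and gene order. Promoter and protein sequences were not used here.

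One model in limma 3.58.1 (R 4.3.3) over all 36 arrays fitted 1 mean for each group, left 24 residual degrees of freedom and moderated the variances along an intensity trend. It gave 15 comparisons, 4 of them differences between responses. P-values were adjusted by Benjamini and Hochberg over all probe sets, errors of fold changes are standard errors, and the number of arrays limits the precision. The fit was tested on simulated data. Groups came from the sample labels. A further 10 settings were tried, and each array was left out in turn.

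The members, gene lists and tests were chosen with earlier results of these data known. Named genes are well-studied members and, per family in the main comparisons (starvation and UV in N2, daf-2 against N2 and against the double mutant), up to 3 called rises and 2 called falls of the largest size without overlap between groups. In other comparisons they are the 3 largest of each direction. The remaining members named (acs-12, acs-14 and others in a second comparison) were described after their values were seen.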

Additional observations from a re-analysis of the deposited data

Results flagged for a closer look

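Dixon's test was run only in the starved double mutant, the only group with 4 arrays. Single arrays stood apart there in 4 genes, each time replicate 4. That array read 8.46 for acs-12 (the others 8.58 to 8.60), 9.97 for cpt-2 (9.72 to 9.76), 5.21 for ech-9 (5.92 to 6.06) and 10.78 for lipl-5 (11.16 to 11.19). With Dixon's test chance marks about 1 in 20 genes in such a group, and the genes looked at were the named ones.

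Responses that differed between strains, by the test of the difference itself in limma, follow as log2 values. On starvation, daf-16 differed from N2 by 0.70 for acox-1.1, 1.31 for acox-1.2, 0.51 for acs-14, -1.54 for acs-3, -1.30 for lipl-2 and -1.69 for lipl-4. The call on acs-3 (adjusted p = 0.039) was lost without almost any single array. The values of acox-1.2 and cpt-4 rest on starved levels near background. Those of lipl-4 rest on levels near background in fed N2 and in both strains with a mutated daf-16. The lipl-2 difference of daf-16 from N2 rests in part on fed N2 arrays near background. On starvation, daf-2 differed from the double mutant by 1.72 for acdh-1, 2.27 for cpt-4, -2.64 for lipl-1, -1.48 for lipl-2, 1.73 for lipl-4 and -1.35 for lipl-5.

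On UV, daf-16 differed from N2 by 0.65 for acs-7, 0.45 for cpt-2, -1.17 for ech-9 and 0.94 for lipl-6, and each of these calls was lost when some single arrays were left out. On UV, daf-2 differed from the double mutant by -0.90 for cpt-6, -0.87 for lipl-4 and -1.36 for lipl-6. The UV values of ech-9 and lipl-4, and that of lipl-6 in daf-2, rest in part on levels near background. Outside the 73 genes, the probe set that acox-1.3 and acox-1.4 share fell by 1.53 in starved N2 (-1.53 ± 0.17, adjusted p = 3.1e-09).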

How the results depend on the processing

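Starvation results depended little on the processing. Leaving out single arrays gave 53 to 54 called genes in N2, 52 to 53 in daf-16, 46 to 49 in daf-2 and 54 to 56 in the double mutant, and 51, 50, 45 and 52 genes were called in every setting that kept the gene. The same range was 28 to 33 for UV in N2, 8 to 15 in daf-16, 23 to 28 in daf-2 and 16 to 23 in the double mutant. It was 19 to 23 for daf-2 against N2, 16 to 24 for daf-2 against the double mutant and 1 to 3 for daf-16 against N2. For differences between responses it was 6 to 10 (starvation, daf-16 against N2), 19 to 23 (starvation, daf-2 against the double mutant), 0 to 15 (UV, daf-16 against N2) and 4 to 13 (UV, daf-2 against the double mutant). Leaving out shared probe sets kept 51 of the 73 genes, so that fewer could be called: 21, 11, 18 and 14 on UV in N2, daf-16, daf-2 and the double mutant, and 3 in each UV difference. A model of only the groups compared called 8 on UV in daf-16, 14 in the double mutant and 0 in the UV difference of daf-16 and N2. With array weights 39 genes were called for daf-2 against N2, 34 for daf-2 against the double mutant, 5 for daf-16 against N2, and 19 and 21 in the UV differences of daf-16 with N2 and of daf-2 with the double mutant. Without the 3 arrays that stood apart these differences gave 20 and 16. The cause of the changes under the last 3 settings was not tested. Among single genes, acdh-2 in starved daf-16 turned to -0.28 (adjusted p = 0.023) on its other probe set, and acs-13 in starved N2 to -0.26 (adjusted p = 0.026) as a mean of its probe sets. Replicate numbers did not pair the samples: correlations of same-numbered arrays ran from -0.21 to 0.43, and no comparison had all of them over 0.1. With the number as a replicate block the counts were 55, 53, 50 and 56 on starvation, 34, 19, 32 and 25 on UV, 29, 23 and 2 between untreated strains, and 11, 21, 8 and 9 for the differences. Of the 73 genes, 11 lie among the dimmest 33.3% of probe sets, where the background limits how far a signal can be seen to fall.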
